A study of Mus musculus with 6 samples.

Results

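Genes of meiotic entry and of the meiotic chromosome axis were examined in the testes of E13.5 mouse embryos with and without Dmrt1, a gene for a DNA-binding protein with a DM domain. The genes were fixed by name: Stra8, Sycp1, Sycp2, Sycp3, Rec8, Smc1b, Stag3, Hormad1, Dmc1 and Ythdc2. Every probe set of the arrays whose platform annotation gave exactly 1 of these symbols was taken, dim ones included, which made 11 of the 45101 probe sets on the array and 10 of 18194 genes. Dmc1 had 2 probe sets and each other gene had 1. Testes of 3 control and 3 Dmrt1 null samples were hybridised, every one labelled as its own biological replicate, and all 6 were outcrossed to 129S6/SvEvTac. The controls are called wild type in the sample titles but heterozygous, Dmrt1 (+/-), in their descriptions and genotype entries. The null samples are homozygous null in titles and descriptions, whereas their genotype entry gives homozygous floxed alleles, and no Cre driver is named. Whole gonads were dissected, so the samples hold germ cells together with Sertoli, interstitial and vascular cells. In such bulk samples fewer germ cells and less RNA per germ cell cannot be told apart.

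Meiosis begins in the fetal ovary, where retinoic acid and BMP signals switch on Stra8 in germ cells, whereas germ cells of the fetal testis stop dividing as prospermatogonia and enter meiosis only after birth. Before the meiotic divisions, the replicated chromosomes are folded along a protein axis made of meiotic cohesins, HORMA domain proteins and the SYCP2 and SYCP3 filaments, and SYCP1 later zips the paired axes into the synaptonemal complex. Many of these genes are already transcribed in germ cells of both sexes before meiosis, after DNA methylation has been erased from their promoters. DMRT1 is known to activate Stra8 in the fetal ovary and to restrain it in postnatal spermatogonia, so the design bears on these genes in the fetal testis.

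The promoters of 4 of the genes are shown because repressors of the germline programme act through sequences of these kinds. Whether such sequences bear on the levels measured here was not tested. Each sequence is the 250 bases before the RefSeq transcription start (GRCm38.p6), written in the direction of transcription. Capitals mark the DMRT1 core ACATTGT, the E-box CACGTG and the E2F6-type sequence GCGGGA, each on either strand. MAX-MGA dimers, which help to keep germline genes silent, bind the E-box, and their partner E2F6 binds the last sequence.
Stra8, chr6:34920698-34920947, plus strand: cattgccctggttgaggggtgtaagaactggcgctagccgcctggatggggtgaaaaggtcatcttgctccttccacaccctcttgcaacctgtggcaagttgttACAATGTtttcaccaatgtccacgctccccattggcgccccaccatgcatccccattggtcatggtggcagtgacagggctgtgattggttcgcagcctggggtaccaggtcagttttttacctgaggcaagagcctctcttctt
Sycp3, chr10:88459337-88459586, plus strand: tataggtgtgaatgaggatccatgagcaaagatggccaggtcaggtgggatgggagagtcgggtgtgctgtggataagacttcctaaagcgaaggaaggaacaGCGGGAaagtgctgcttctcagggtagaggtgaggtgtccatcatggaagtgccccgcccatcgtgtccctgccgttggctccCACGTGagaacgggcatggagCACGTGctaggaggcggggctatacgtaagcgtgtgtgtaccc
Hormad1, chr3:95559427-95559676, plus strand: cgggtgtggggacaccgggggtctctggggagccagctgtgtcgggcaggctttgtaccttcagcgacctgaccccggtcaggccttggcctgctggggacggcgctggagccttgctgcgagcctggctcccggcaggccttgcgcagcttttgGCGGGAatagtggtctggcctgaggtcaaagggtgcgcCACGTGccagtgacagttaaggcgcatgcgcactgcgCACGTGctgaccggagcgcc
Smc1b, chr15:85131958-85132207, minus strand: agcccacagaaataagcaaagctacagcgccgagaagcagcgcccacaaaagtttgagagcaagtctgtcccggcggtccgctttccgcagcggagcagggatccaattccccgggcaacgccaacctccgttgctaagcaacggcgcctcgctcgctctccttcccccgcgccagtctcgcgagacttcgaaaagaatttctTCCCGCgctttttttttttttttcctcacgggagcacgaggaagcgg

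RefSeq promoters of 300 bases, from 250 before to 50 after the start, were found for 9 of the 10 genes. The DMRT1 core occurred in 1 of the 9, Stra8, on the reverse strand with its first base 145 bases before the start, and in 2.96% of all 32851 promoters of the same length. The E2F6-type sequence occurred in 7 of the 9, all but Stra8 and Sycp2, against 20.0% of all promoters. The E-box occurred in 4, Sycp1, Sycp3, Stag3 and Hormad1, against 7.15% of all promoters, and the Sycp3 and Hormad1 promoters each held 2. The retinoic acid receptor half-site AGGTCA was in the promoters of Stra8, with 2 copies, Sycp3 and Hormad1, against 16.3%. The STRA8-type sequence CNCCTCAG was in that of Sycp1, against 7.94%. The matches in the 9 promoters did not overlap each other, and a match is a run of letters, not a measured binding site. The number of CpG dinucleotides ran from 10 in the Stra8 and Sycp2 promoters to 30 in the Stag3 promoter, against a median of 7 over all promoters, and the E2F6-type sequence and the E-box each hold a CpG.

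**Figure D1:**
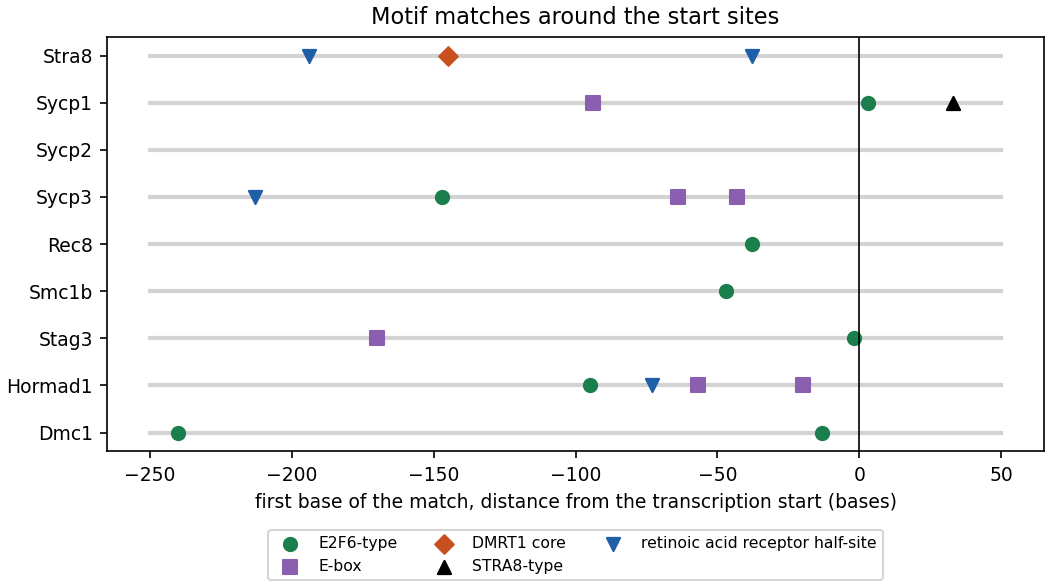
Matches to 5 motifs in the promoters of the 9 genes, 1 grey line per gene from 250 bases before to 50 bases after the RefSeq start (black vertical line). The horizontal axis gives the first base of each match in bases from the start. The DMRT1 core (diamond) appears on the Stra8 line alone among these genes, and E2F6-type matches (circles) appear on 7 lines.

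The deposited values are array intensities on a linear scale. Array medians were 14.6 to 14.8, and values near or below this level are close to background. Where 3 values are given for a group, they follow the order of replicates 1, 2 and 3. The Dmrt1 probe set followed the labels, with intensities of 696 to 1030 in the controls and 23.8 to 48.4 in the nulls, and whether it lies in the deleted part of the gene is not stated in the labels. Male tissue was seen on all 6 arrays, since the brightest Xist probe set had log2 intensities of at most 2.45 while the Y-linked gene Eif2s3y had at least 11.3. The Actb control probe sets, whose 3' to 5' ratio reflects RNA length, gave a ratio of 2.75 in null replicate 3 and 1.91 to 2.15 elsewhere. Each difference is the null mean minus the control mean of log2 intensity, from limma fitted to the 22082 probe sets with a mean log2 intensity of at least 4, with Benjamini-Hochberg adjusted p. Of the 11 probe sets, 8 were in this fit. Stra8 and both Dmc1 probe sets were too dim, with means of 3.11, 3.71 and 3.78. Rec8, at 4.05, lay just inside and only through its controls, with means of 4.23 in the controls and 3.86 in the nulls.

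No gene of the group passed the test. Limma called 0 of the 8 probe sets at an adjusted p of 0.05, against 0.0272% of all probe sets tested, and 1 of the 8, Ythdc2, at an unadjusted p of 0.05, against 6.04% of all. The mean was lower in the nulls for 8 of the 11 probe sets, where 48.2% of all probe sets on the array were lower, and for 7 of the 8 in the fit, against 48.1%. Rec8 was 1 of these 7, and its lower null mean is no separate result, since it entered the fit through its controls. Over the 10 genes, with the brighter Dmc1 probe set, the median difference was -0.28, and it was 0.073 without control replicate 2. The median over all probe sets was 0.0059.

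Stra8, the retinoic acid target that starts the meiotic programme, was dim on every array. Its intensity was 8.21, 18.8 and 8.22 in the controls and 6.53, 6.58 and 7.66 in the nulls. Every null lay below every control, the lowest control by a small margin, and control replicate 2 alone lay above the array median. Groups that did not overlap were found at 1 of the 11 probe sets, this one, against 11.0% of all probe sets on the array. The Stra8 difference was -0.65, with a 95% confidence interval of -1.34 to 0.041 in the fit without the filter (limma adjusted p = 0.878). It was -0.25 without control replicate 2 and also -0.25 with 16 added to every intensity, which damps changes of dim values. The Stra8 promoter printed above is the only one of the 9 with the DMRT1 core, and whether this match bears on the Stra8 level was not tested.

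Ythdc2, an RNA helicase that binds modified RNA and lets germ cells leave mitosis for meiotic prophase, varied little. It gave intensities of 590, 556 and 469 in the controls and of 407, 403 and 474 in the nulls. Control replicate 3 and null replicate 3 were nearly equal, and the other controls stood above the other nulls. The difference was -0.33 with a standard error of 0.13 and a 95% confidence interval of -0.63 to -0.023, a 1.26-fold lower level (limma adjusted p = 0.773, unadjusted 0.0380). It kept its sign without any 1 array, from -0.42 to -0.26.

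**Figure D2:**
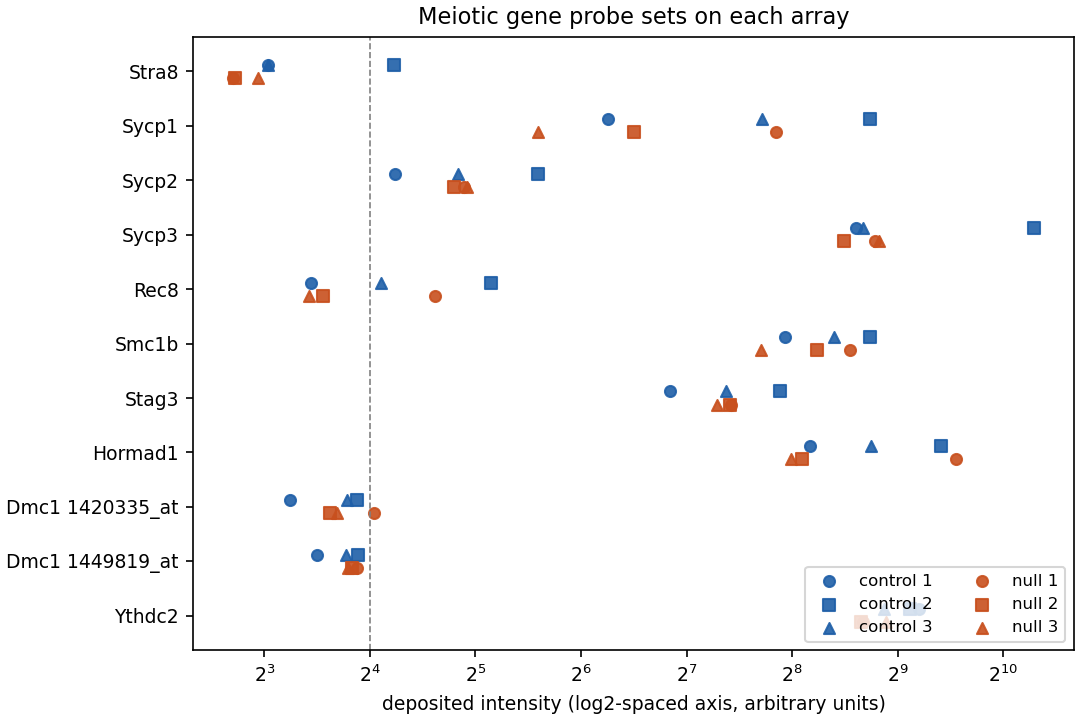
Deposited intensity of the 11 probe sets on each array, on a log2-spaced horizontal axis in arbitrary units. Blue symbols are control replicates 1 to 3, orange symbols null replicates 1 to 3, and the dashed line is the filter level at an intensity of 16. Control replicate 2 (blue square) lies farthest right for Sycp3, at 1250, and for most other genes, whereas the blue and orange symbols otherwise mix, except for Stra8, whose nulls all lie left of its controls.

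Sycp3, which forms the lateral axis fibres, was set apart on 1 array. Its intensity was 389, 1250 and 407 in the controls and 440, 360 and 452 in the nulls. Control replicate 2 was 2.77-fold above the next highest array, and the other 5 arrays lay between 360 and 452, controls and nulls mixed. The Sycp3 difference of -0.49 with a standard error of 0.41 (limma adjusted p = 0.823) became 0.062 without control replicate 2.

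Sycp1, the transverse filament that joins the paired axes, varied most from array to array among the 10 genes. Its intensity was 76.6, 426 and 210 in the controls and 230, 90.6 and 48.2 in the nulls. The highest array exceeded the lowest 8.84-fold, and each group held high and low arrays. The standard deviation within groups was 1.19 on the log2 scale, larger than at 99.7% of the probe sets tested. The Sycp1 difference was -0.92 with a standard error of 0.70 (limma adjusted p = 0.811), and its 95% confidence interval of -2.54 to 0.70 leaves room for a large change in the downward direction. Leaving out control replicate 2 moved the Sycp1 difference to -0.34, and leaving out control replicate 1 to -1.58. Without null replicate 3, the lowest array, it was -0.40, and without null replicate 1 it was -1.52.

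Sycp2, the partner of SYCP3 in the axis, gave a weak signal. Its intensity was 18.9, 48.4 and 28.6 in the controls and 29.7, 27.8 and 30.3 in the nulls. The nulls were tightly grouped inside the range of the controls, which held both the lowest and the highest array. The Sycp2 difference was -0.022 with a standard error of 0.31 (limma adjusted p = 0.993), and 0.33 without control replicate 2.

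Meiotic cohesin exchanges 3 subunits of the mitotic ring for meiotic ones: REC8 is the kleisin, SMC1B the SMC partner and STAG3 the peripheral subunit. Rec8 had intensities of 10.9, 35.4 and 17.2 in the controls and 24.5, 11.8 and 10.7 in the nulls. Control replicate 2 and null replicate 1 were the highest arrays and the only ones, with control replicate 3, above an intensity of 16. The Rec8 difference was -0.37 with a standard error of 0.46 (limma adjusted p = 0.882), and 0.090 without control replicate 2.

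Smc1b had intensities of 244, 427 and 337 in the controls and 373, 302 and 208 in the nulls. Its groups overlapped widely, with control replicate 2 highest, null replicate 1 next and null replicate 3 lowest. The Smc1b difference was -0.19 with a standard error of 0.26 (limma adjusted p = 0.890). Stag3 had intensities of 115, 237 and 166 in the controls and 171, 170 and 156 in the nulls. All nulls of Stag3 lay inside the range of the controls. Its difference was 0.0011 with a standard error of 0.25 (limma adjusted p = 0.9996), and a 95% confidence interval of -0.57 to 0.57 bounds a change of Stag3 in either direction.

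The mitotic counterparts of these subunits, Smc1a, Rad21, Stag1 and Stag2, had 13 probe sets in the same fit, and none was called. The brightest probe sets of Smc1a, Rad21, Stag1 and Stag2 were at differences of 0.17, 0.086, 0.0028 and 0.038, and the dimmer ones between -0.42 and 0.0094. The level of the brightest ones in control replicate 2, against the mean of the other 5 arrays, was -0.088, -0.025, -0.12 and -0.21 on the log2 scale. The same quantity was 0.58 for Smc1b, 1.32 for Rec8 and 0.62 for Stag3. The sign of the mitotic values depended on the probe set: over all 13, control replicate 2 was above the mean of the other arrays at 8 and below it at 5, from -0.21 to 0.38. The values of all 3 meiotic subunits lay above this range, and this comparison was not tested.

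Hormad1, a HORMA domain protein that marks unsynapsed axes, had intensities of 288, 679 and 430 in the controls and 749, 273 and 254 in the nulls. Null replicate 1 was the highest array and the other nulls were the lowest, so the spread within the nulls exceeded the difference between groups. The Hormad1 difference was -0.23 with a standard error of 0.45 (limma adjusted p = 0.920). It was -0.73 without null replicate 1 and 0.084 without control replicate 2. The Hormad1 probe set is of a type shared by transcripts of 1 gene.

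Dmc1, the recombinase that carries out strand exchange between homologous chromosomes, stayed near background. Its probe sets gave intensities of 9.50 to 14.7 and 11.3 to 14.8 in the controls and of 12.3 to 16.4 and 13.9 to 14.7 in the nulls. Neither probe set separated the groups, and their differences were 0.14 and 0.11 in the fit without the filter (limma adjusted p = 0.938 and 0.933). A change of Dmc1 was not detectable at this signal.

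**Figure D3:**
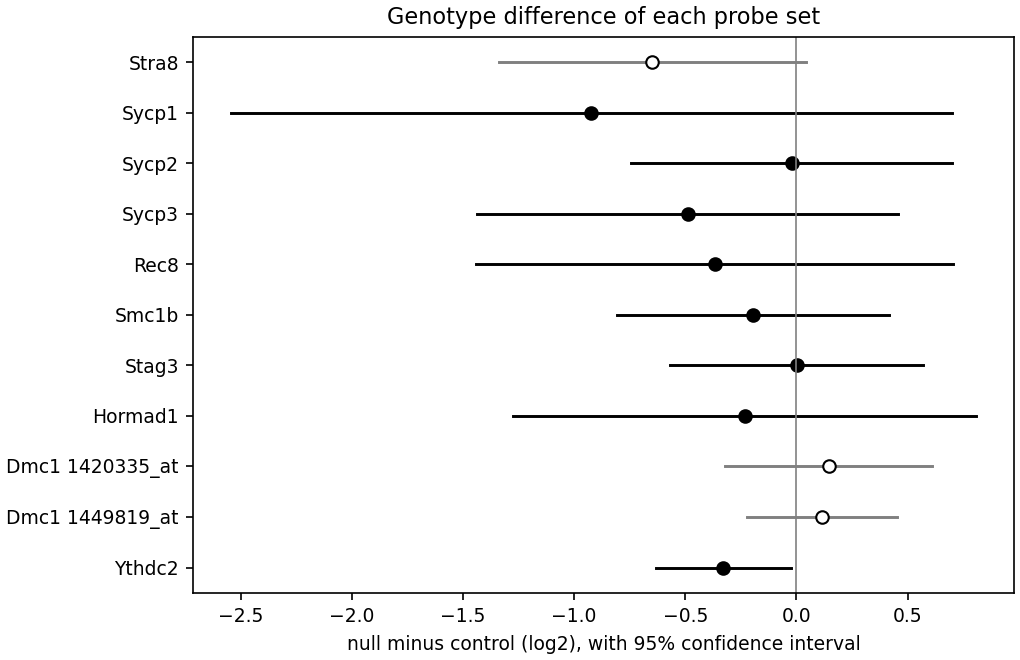
Null minus control difference of each probe set on the log2 scale (horizontal axis), with its 95% confidence interval from limma, 3 arrays per group. Filled points were in the fit with the intensity filter and open points, with grey bars, come from the fit without it. Only the interval of Ythdc2, -0.63 to -0.023, does not cover 0, and its adjusted p was 0.773.

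Levels of the group differed between arrays of 1 genotype, most of all among the controls. Centred on each gene's mean over the 6 arrays, the median of the 10 genes was -0.41, 0.73 and 0.0017 in the controls and 0.074, -0.32 and -0.15 in the nulls. The standard deviation of this median within the groups, pooled over both, was 0.43, larger in size than the median difference of -0.28. The spread was wider in the controls than in the nulls, so the pooled value mostly reflects the controls. Control replicate 2 was the highest array for 8 of the 10 genes, all but Hormad1 and Ythdc2 (for Dmc1 by 14.8 against 14.7 at the brighter probe set), against 16.5% of all probe sets on the array. Of the 8 genes in the fit it was the highest for 6, Rec8 among them, against 16.7% of the kept probe sets. This pattern was described after the values were seen. Sycp1, Sycp3, Stra8 and Rec8 exceeded the mean of their other 5 arrays by 1.95, 1.61, 1.34 and 1.32 on the log2 scale there. Ythdc2 and Dmc1 exceeded it by 0.26 and 0.13. Null replicate 1 was the second highest array for Sycp1, Rec8, Smc1b, Stag3 and the brighter Dmc1 probe set, and the highest for Hormad1. It was also the highest at the dimmer Dmc1 probe set, at 16.4 against 14.7 in control replicate 2. Without control replicate 2, the nulls were higher at 6 of the 10 genes and lower at 4.

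**Figure D4:**
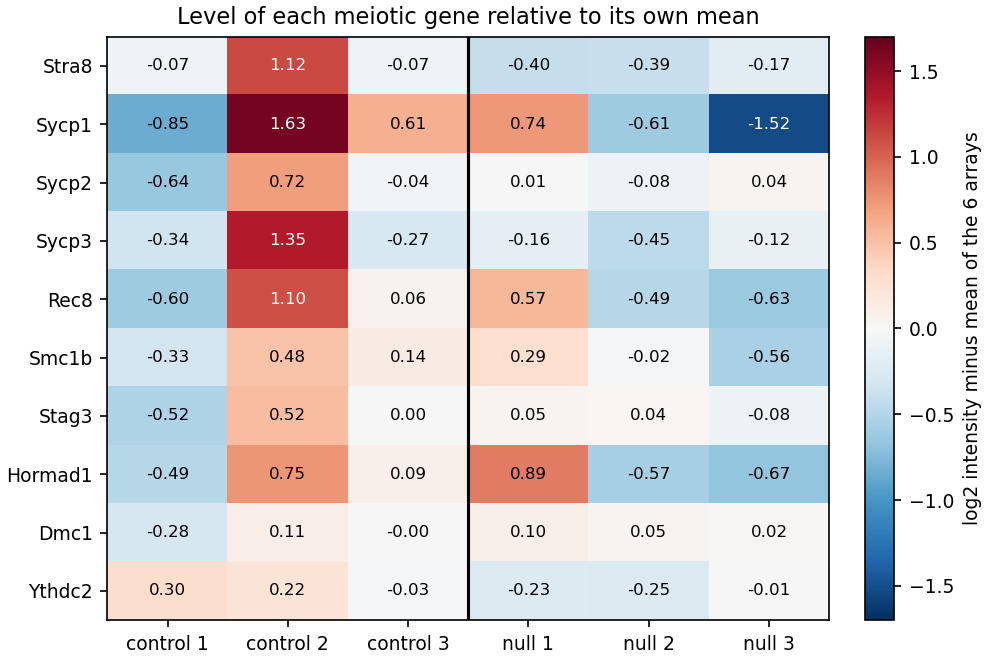
Log2 intensity of each of the 10 genes minus its own mean over the 6 arrays, with controls left and nulls right of the black line. Red is above and blue below the mean. The column of control replicate 2 is above 0 for every gene, from 0.11 for Dmc1 to 1.63 for Sycp1, and control replicate 1 is below 0 for all but Ythdc2.

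Marker levels of germ cells, endothelial cells, red blood cells and fetal Leydig cells also differed between arrays of 1 genotype. Of 18 measured germ cell markers, such as the RNA helicase gene Ddx4 and the RNA-binding protein gene Dazl, 16 passed the filter and Tdrd1 and Tdrd9 did not. Their median level was highest in control replicate 2, at 0.41, and between -0.24 and 0.088 on the other arrays. Of the 18, 12 were highest in control replicate 2, but Tfap2c, a transcription factor gene of early germ cells, was lowest there, at -1.49 against the mean of its other arrays, and Kit, a receptor gene, was at -0.56. Their summed intensity ran from 17382 to 24937 in the controls and from 17784 to 20746 in the nulls. With their median as a covariate in the fit, the median difference of the 10 genes was 0.028. This covariate was itself highest in control replicate 2, so that fit and the one without this array are not separate evidence.

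Endothelial markers, all 6 above the filter, had their lowest medians in control replicate 2, at -0.92, and null replicate 1, at -0.59, and 0.31 to 0.43 elsewhere. Their summed intensity was 957 to 2715 in the controls and 1283 to 2526 in the nulls. Erythroid markers, such as the embryonic globin gene Hba-x, had 4 measured genes, all above the filter. Their median was also lowest in control replicate 2, at -1.10, next lowest in null replicate 1, at -0.25, and between -0.027 and 0.65 elsewhere. Their summed intensity was 10754 to 18703 in the controls and 13323 to 17717 in the nulls. Fetal Leydig markers, 4 measured and all above the filter, were at 0.76 in control replicate 2 and 1.26 in null replicate 1 but also at 0.78 in control replicate 3. Their summed intensity was 4024 to 10320 in the controls and 3204 to 12950 in the nulls. Of 7 granulosa and ovarian genes 6 passed the filter, with summed intensities of 2405 to 3254 in the controls and 2357 to 3347 in the nulls. Foxl2, which defines granulosa cells, was below the filter on all arrays, at a log2 intensity of 2.93 to 3.34. Sertoli markers, 11 measured and all above the filter, had medians of -0.048 to 0.038. Of these, 4 were lower and 7 higher in the nulls, and Cst9 alone was called, at -1.58 (limma adjusted p = 0.0271). Macrophage markers, 5 measured and all above the filter, were all lower in the nulls, and none was called. Their medians were -0.059, 0.081 and 0.49 in the controls and -0.16, -0.18 and -0.27 in the nulls. Mesonephros markers, 4 measured, had medians of -0.18 to 0.21. The part of cell composition in the meiotic gene levels was not tested.

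**Figure D5:**
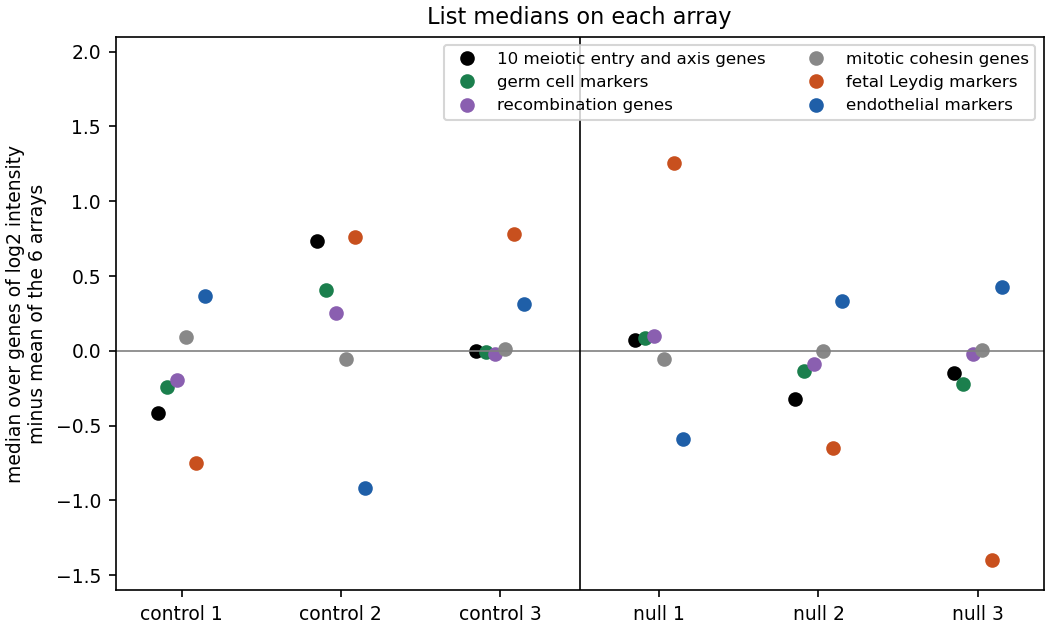
Level of 6 gene lists on each array (horizontal axis), as the median over genes of the centred log2 intensity (vertical axis), controls left and nulls right of the black line. The 10 meiotic genes (black) and the germ cell markers (green) are both highest in control replicate 2, at 0.73 and 0.41, where endothelial markers (blue) are lowest, at -0.92. Mitotic cohesin genes (grey), by their brightest probe sets, stay between -0.057 and 0.095.

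Other genes of the pathway were taken from 4 lists of recombination, synapsis, cohesin and regulatory genes, with the brightest probe set of each gene. Of these genes 73 were measured, 61 passed the filter, and limma called 0 at an adjusted p of 0.05 and 3 at an unadjusted p of 0.05, against 0.0272% and 6.04% of all probe sets tested. Among 20 recombination genes, 12 were lower and 8 higher, with a median of -0.022. Among 13 synapsis genes, 8 were lower and 5 higher, with a median of -0.048. Mitotic cohesin and cohesion genes had 9 of 15 lower and a median of -0.078, and regulators of meiotic entry 15 of 25 lower and a median of -0.033. Without control replicate 2, the medians were 0.16, 0.098, -0.11 and -0.063 in that order.

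The recombination genes with the smallest p were Mcm9, a helicase of recombination repair, at -0.45 (standard error 0.14, limma adjusted p = 0.773), Psmc3ip, a partner of DMC1, at 0.18, and Brca2, which loads recombinases, at 0.29. Mcm9 had intensities of 1120, 1120 and 996 in the controls and 647, 919 and 818 in the nulls, so its groups did not overlap. The 3 other Mcm9 probe sets were below the filter. Among synapsis genes they were Trip13, the ATPase that removes HORMAD proteins from axes, at 0.17, the central element gene Syce2 at 0.15 and its partner Tex12 at -0.78. A dimmer tested Trip13 probe set was at -0.13, opposite in sign. Tex12 was likewise highest in control replicate 2, at 171, with 96.3 in null replicate 1 and 24.6 to 48.8 elsewhere.

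Among cohesin genes the smallest p belonged to Esco2, an acetyltransferase that locks cohesin on replicated DNA, at -0.30 (standard error 0.10, limma adjusted p = 0.773), the cohesin release factor Wapl at -0.13 and Smc1a at 0.17. Esco2 had intensities of 1240, 1510 and 1300 in the controls and 1170, 1080 and 1030 in the nulls, and a dim second probe set was at 0.17. Among regulators it belonged to Tet1, which oxidises DNA methylation at meiotic gene promoters, at -0.37 (standard error 0.14, limma adjusted p = 0.773), Ring1, a Polycomb subunit, at 0.43 and Dazl, which licenses germ cells for meiosis, at -0.18. Tet1 had intensities of 618, 541 and 547 in the controls and 453, 503 and 375 in the nulls. Its groups did not overlap at this probe set, and 3 dimmer Tet1 probe sets were at -0.18, -0.042 and -0.37. A dimmer tested Dazl probe set was at -0.48 (limma adjusted p = 0.773). Groups did not overlap at 2 of 20 recombination, 1 of 13 synapsis, 6 of 15 cohesin and 3 of 25 regulatory genes. The share was 11.0% of all probe sets on the array and 12.8% of the kept ones. All 15 cohesin genes were kept, and the 6 went in both directions, from -0.30 for Esco2 to 0.18 for Cdca5. Of the entry signals, Cyp26b1, which degrades retinoic acid in the fetal testis, was at 0.039, and Bmp2 at -0.28, neither called.

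The genes whose profile over the 6 arrays was closest to the mean profile of the 8 meiotic genes in the fit were Sult6b1, Cdkn2a, Dppa4, Stk31 and Mael. The 8 included Rec8, which passed the filter through its controls. Likeness was the root mean square distance of centred log2 intensities, over 11866 genes, and was 0.060, 0.063, 0.069, 0.098 and 0.099. Dppa4 encodes a chromatin protein of pluripotent and germ cells, Stk31 a germ cell kinase-like protein, Mael a piRNA pathway protein and Cdkn2a a cell cycle inhibitor. Mael, also among the germ cell markers, stood 0.99 above its own mean in control replicate 2 and 0.31 above it in null replicate 1, where the meiotic profile stood at 0.84 and 0.27. Dppa4 was at 0.77 and 0.21. The suffix of the Sult6b1 probe set marks probes shared with similar transcripts. With 6 arrays and so many genes, close profiles are a description of these samples.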

How the data were processed

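From whole gonads, total RNA (100 ng) went through NuGen Ovation amplification with biotin as the label, per the labels' protocols. What the authors deposited is 1 linear-scale array intensity per probe set, made with GCRMA per the submitters' processing notes, which give no version. GCRMA estimates background per probe, so folds between dim values depend on it.

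Arrays were grouped by title. Gene names came from GEO's platform annotation, and all 11 probe sets matched RefSeq (GRCm38.p6) by Entrez ID. The log2 of each intensity was used as it stood, and probe sets with a mean of at least 4 were kept. Groups were compared with limma 3.58.1 in R 4.3.3 (eBayes with an intensity trend, two-sided, Benjamini-Hochberg over all 22082 kept probe sets). The test was checked on simulated data.

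The members and lists were chosen with earlier results of these data known. From each other list the called genes, or else the 3 of smallest p, were named, besides all members and the 5 genes of closest profile. Paralogue values and the control replicate 2 pattern were chosen after values were seen. Nothing in the labels says that replicate numbers pair the samples.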

Additional observations from a re-analysis of the deposited data

How the results depend on the processing

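No probe set of the 10 genes and none of the other pathway genes tested was called under any alternative run: no filter, a filter at a mean log2 of 6, quantile normalization, 16 added to the intensities, no intensity trend, the replicate block, the germ cell covariate, means over probe sets, fewer probe set types, or leaving out any 1 array. The median difference of the 10 genes, -0.28, ranged from -0.47 to 0.073 with 1 array left out. Signs of several differences were not stable, including those of Sycp3, at -0.49 with all arrays, and Rec8, at -0.37. Stag3, at 0.0011 with all arrays, was at -0.0083 with quantile normalization and -0.0040 with 16 added. With the germ cell covariate Sycp2 was at 0.22, Rec8 at 0.045, Smc1b at 0.012 and Hormad1 at 0.13, where all were negative without it, and the cause was not tested. Leaving out 1 array gave ranges of -0.26 to 0.26 for Stag3, -0.35 to 0.33 for Sycp2, -0.78 to 0.062 for Sycp3, -0.76 to 0.090 for Rec8, -0.41 to 0.036 for Smc1b and -0.73 to 0.084 for Hormad1. Stra8, Sycp1 and Ythdc2 stayed below 0 in all of these fits. Over all probe sets limma called 6, against 1 without the intensity trend, 0 with the replicate block, 3 without the shared probe set types 0 to 4 with 1 array left out, 9 with the germ cell covariate and 4 to 6 under the other alternatives. For same-numbered samples, the correlations of deviations from the group means over the kept probe sets were -0.59, -0.34 and 0.14. Deviations from a mean of 3 arrays constrain one another, so these values cannot decide whether the replicate numbers pair the samples. In the replicate block fit the median difference was -0.28, which could not change because each block held 1 control and 1 null. Signal close to background limits what Stra8, Dmc1 and Rec8 can show, and 3 arrays per group limit the precision of every difference.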
